A study of Mus musculus with 8 samples.

Results

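The Krüppel-like factors examined here were 10 genes of 1 family of zinc-finger transcription factors, *Klf2*, *Klf3*, *Klf4*, *Klf5*, *Klf6*, *Klf7*, *Klf9*, *Klf10*, *Klf11* and *Klf13*. They were found by symbol among the 54532 Ensembl gene identifiers of the deposited count files, and all 10 had an identifier and passed the filter on low counts. RNA had been sequenced from 8 primary cultures of wild-type (WT) mouse brain pericytes. For 48 h, 4 of them received TGF-β1 at 5 μg/mL and the other 4 received vehicle. TGF-β1 is a secreted cytokine, and pericytes are the mural cells that surround capillaries. The methods give male mice of 4 and 6 months for the study without tying them to the brain isolates, and the strain of the isolates is not given in the sources used here. The cells had been passaged several times in a medium with serum and growth factors, so they are a model of brain pericytes in culture at 1 time point. The labels number the vehicle cultures 1 to 4 and the TGF-β1 cultures 5 to 8. The methods speak of 4 isolates given both agents and the series text of 8 cultures, no label ties a TGF-β1 culture to a vehicle culture, and the groups were compared unpaired.

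Krüppel-like factors bind GC-rich and CACCC elements in promoters through zinc fingers at their carboxyl end, and the rest of the protein decides whether a member activates or represses. KLF10 and KLF11 are known as TGF-β inducible early genes and repress transcription through the SIN3A corepressor. KLF4 is known in mural cells as a repressor of the contractile genes, KLF5 as an activator in growing smooth muscle cells, and KLF2 and KLF4 in endothelium as genes induced by flow. KLF9 and KLF15 are classical targets of the glucocorticoid receptor.

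Total counts per culture ranged from 45255235 to 47651397, and levels are given below as CPM, the count of a gene scaled to the size of its library with TMM factors. A difference was called at an adjusted p under 0.05 (edgeR's quasi-likelihood test on 22544 genes, Benjamini-Hochberg adjusted). The methods call the isolates independent, the labels do not say whether they came from separate animals, and p-values measure the spread between these cultures. Among 14 response genes of the TGF-β pathway, 11 were higher and 3 were lower (median log2 fold change 0.64), with *Ltbp2* at 1.89 and *Tgfbi* at -1.50. For comparison, 20.9% of all genes tested were higher and 20.3% were lower. Of 12 brain pericyte markers, *Pdgfrb* had 202 ± 5.43 CPM (SD, n = 4) with vehicle and *Notch3* had 88.5 ± 1.86 CPM, whereas *Kcnj8* and *Vtn* stayed under 0.1 CPM on average in both groups. Endothelial markers were of interest because *Klf2* and *Klf4* are abundant in that cell type. With vehicle *Cdh5* had a mean of 375 CPM, *Flt1* 81.7 CPM, *Kdr* and *Ly6c1* 17.9 CPM each, *Pecam1* 1.11 CPM, *Cldn5* 0.0754 CPM and *Erg* 0.0540 CPM. The 12 endothelial markers summed to between 490.5 and 503.6 CPM in the vehicle cultures and to between 491.4 and 514.9 CPM in the TGF-β1 cultures, with *Cdh5* as the main part. Within the list *Flt1* (log2 fold change 0.28) and *Vwf* (1.27) were higher and *Ly6c1* (-0.33) and *Slco1c1* (-2.07) were among the lower genes. The 10 macrophage and microglia markers summed to between 8.60 and 9.32 CPM with vehicle and to between 9.94 and 11.7 CPM with TGF-β1, the 10 astrocyte and glial markers to between 201.1 and 208.1 and to between 148.7 and 159.8 CPM, and the 10 fibroblast markers to between 5903 and 6090 and to between 6900 and 7204 CPM. In the fibroblast list *Col1a1*, *Col1a2* and *Col3a1* were higher while *Apod*, *Gpc3*, *Fbln1* and *Dcn* were lower, and in the glial list *Slc1a3*, *Aldh1l1* and *Mbp* were higher while *Slc1a2* and *Sox9* were among the lower genes, so that members of both lists moved both ways. The part of these marker changes in the results below was not tested, and in bulk RNA fewer cells of a type and less RNA per cell cannot be told apart.

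All 10 Krüppel-like factors differed between the groups, 2 of them higher (*Klf4* and *Klf10*) and 8 lower with TGF-β1. Of all genes tested 41.3% were called, 20.9% higher and 20.3% lower. Among the 11120 genes at or above 6.79 CPM on average, the level of the least abundant member, 59.7% were called, 32.6% higher and 27.1% lower. The changes were small, with a median log2 fold change of -0.17 over the 10 members against -0.01 over all genes tested. Their absolute log2 fold changes ran from 0.075 (*Klf13*) to 0.50 (*Klf11*), and 8 of the 10 lay under 0.32, the median of all called genes. Cultures of a group resembled each other closely, with coefficients of variation from 0.242% (*Klf5*, vehicle) to 14.9% (*Klf2*, TGF-β1). Vehicle and TGF-β1 cultures were fully separated in 9 of the 10 members, all but *Klf2*, as they were in 37.9% of all genes tested and in 55.5% of those at or above 6.79 CPM. For each of these 9 the exact permutation test (two-sided, 4 against 4 cultures) gave p = 0.0286, the smallest p it can give.

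**Figure D1:**
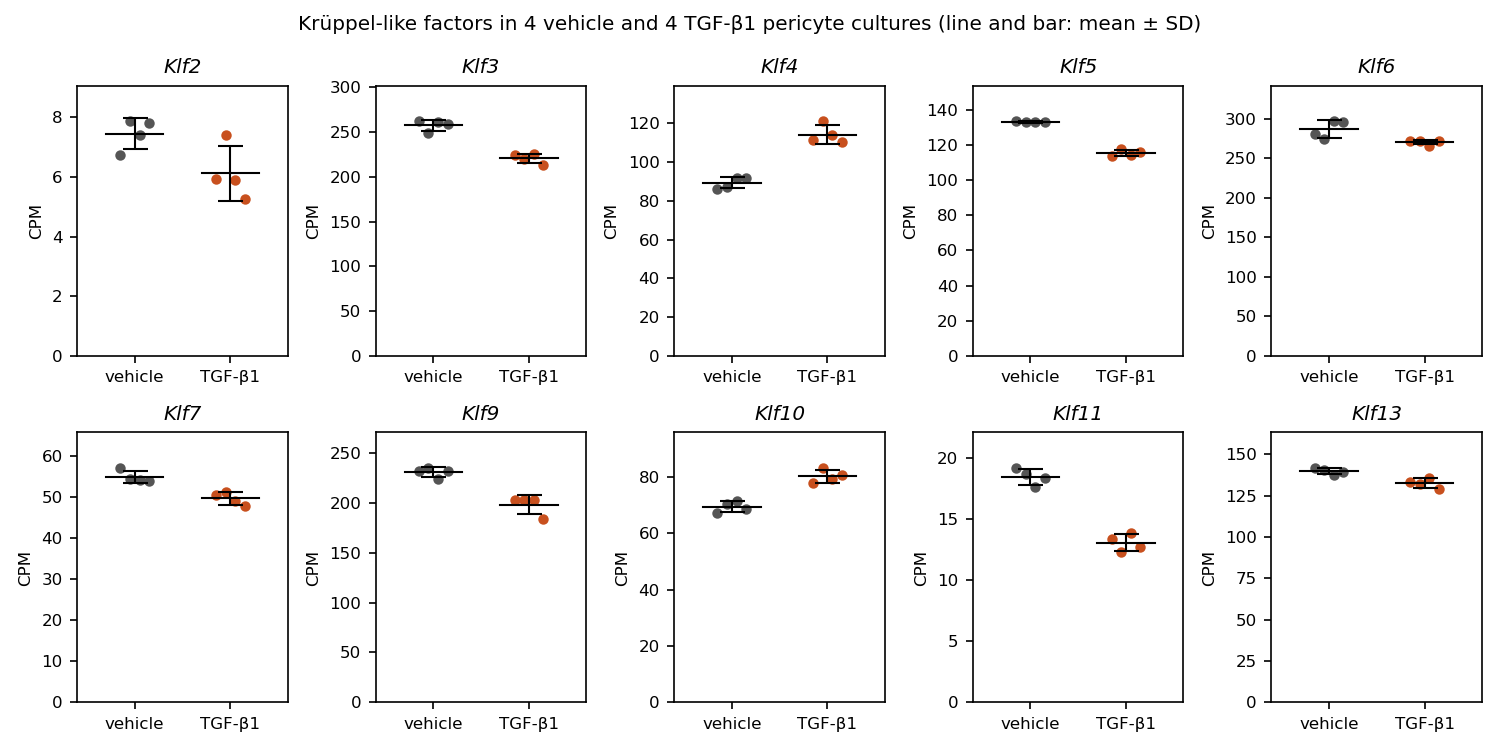
Level of each of the 10 Krüppel-like factors in CPM (vertical axes from 0) in the 4 vehicle and 4 TGF-β1 cultures, with 1 point per culture and mean ± SD as line and bar. *Klf4* and *Klf10* sit higher with TGF-β1, the other 8 lower, and only *Klf2* has overlapping groups.

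Promoters from RefSeq (GRCm38.p6) were found for 8 of the 10 members, all but *Klf5* and *Klf10*, and the 250 bases before the start were searched on both strands for short motifs. RefSeq and GENCODE differ in where they start some genes, so that 250 bases of the *Klf7* window, 133 of that of *Klf3*, 97 of *Klf11*, 29 of *Klf2* and 7 of *Klf6* lie inside the GENCODE gene, and motifs counted there may be in transcribed sequence. The 8 windows held between 59.2% and 78.4% G and C, against a median of 52.4% over the 32851 promoters of the table. Of all promoters 29.9% held 59.2% or more. Motif shares among promoters of like G and C content were not computed, so the shares below do not allow for this difference. A GC box (CCGCCC), which Sp and Krüppel-like factors can bind, was in 7 of the 8, all but *Klf9*, and in 32.7% of all promoters. A CACCC box (CACCC) was in 5 of the 8, those of *Klf2*, *Klf3*, *Klf7*, *Klf9* and *Klf13*, and in 52.0% of all promoters. The SMAD element (CAGAC) was in 1 of the 8, that of *Klf3*, and in 42.2% of all promoters. A pair of glucocorticoid receptor half-sites (ACANNNTGT) was in none of the 8 and in 5.84% of all, a TATA box (TATAAA) in none and in 12.4%, and a CArG box in none and in 1.47%. A GC box and a CACCC box can share bases, as in *Klf13*. The windows of the strongest riser, the strongest faller and the member without a GC box are shown to let these counts be read, with GC and CACCC boxes in capitals and both strands marked. For *Klf11*, the last 97 bases are left out because GENCODE starts the gene earlier, so that 2 of its 4 GC boxes are shown, and these share bases. A match is a description of letters and not of binding.
Klf4, chr4:55532476-55532725, minus strand: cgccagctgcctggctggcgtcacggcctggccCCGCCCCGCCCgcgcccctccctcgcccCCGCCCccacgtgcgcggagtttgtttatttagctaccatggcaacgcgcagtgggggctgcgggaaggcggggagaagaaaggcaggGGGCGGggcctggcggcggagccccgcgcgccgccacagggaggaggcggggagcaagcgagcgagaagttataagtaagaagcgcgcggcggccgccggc
Klf11, chr12:24651121-24651273, plus strand: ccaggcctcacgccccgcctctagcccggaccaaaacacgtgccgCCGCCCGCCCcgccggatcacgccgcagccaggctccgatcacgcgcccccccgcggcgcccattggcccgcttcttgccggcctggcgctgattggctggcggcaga
Klf9, chr19:23140976-23141225, plus strand: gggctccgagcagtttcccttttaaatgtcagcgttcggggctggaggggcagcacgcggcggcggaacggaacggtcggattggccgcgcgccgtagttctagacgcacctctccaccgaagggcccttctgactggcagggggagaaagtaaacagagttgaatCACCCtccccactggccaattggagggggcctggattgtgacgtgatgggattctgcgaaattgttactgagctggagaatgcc

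The TGF-β inducible early genes moved in opposite directions. *Klf10* (ENSMUSG00000037465, chromosome 15, 38291463 to 38300706 of GRCm38, minus strand) had 67.1, 70.4, 71.5 and 68.7 CPM in vehicle replicates 1 to 4 and 77.8, 83.2, 79.3 and 80.4 CPM in TGF-β1 replicates 5 to 8. Every TGF-β1 culture lay above every vehicle culture. The mean went from 69.4 ± 1.92 to 80.2 ± 2.27 CPM (SD, n = 4 each), a rise of 15.5% (log2 fold change 0.21, standard error 0.03, edgeR adjusted p = 2.48e-07). *Klf11* (ENSMUSG00000020653, chromosome 12, 24651274 to 24662789, plus strand) had 19.2, 18.7, 17.6 and 18.3 CPM with vehicle and 13.3, 12.3, 13.9 and 12.7 CPM with TGF-β1. Here every TGF-β1 culture lay below every vehicle culture, and the gap between the groups was wider than the range within either. The mean fell from 18.4 ± 0.649 to 13.0 ± 0.685 CPM (SD, n = 4 each), which was the largest change among the 10 members (log2 fold change -0.50, standard error 0.06, edgeR adjusted p = 6.31e-10). Per kb of exon, *Klf10* was between 3.63 and 4.21 times as abundant as *Klf11* in the vehicle cultures and between 5.94 and 7.01 times as abundant in the TGF-β1 cultures.

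*Klf4* (ENSMUSG00000003032, chromosome 4, 55527143 to 55532466, minus strand) rose most. Its level was 86.2, 87.4, 91.8 and 91.7 CPM in the vehicle cultures and 111, 121, 114 and 110.1 CPM in the TGF-β1 cultures. The lowest TGF-β1 culture was well above the highest vehicle culture. The mean went from 89.3 ± 2.90 to 114 ± 4.87 CPM (SD, n = 4 each), a rise of 27.9% (log2 fold change 0.35, standard error 0.03, edgeR adjusted p = 1.74e-13). *Klf5* (ENSMUSG00000005148, chromosome 14, 99298691 to 99315036, plus strand) had 133.5, 132.9, 133.1 and 132.8 CPM with vehicle, the tightest group of all members, and 114, 118, 114 and 116 CPM with TGF-β1. It fell from 133 ± 0.321 to 115 ± 1.76 CPM (SD, n = 4 each; log2 fold change -0.21, standard error 0.03, edgeR adjusted p = 5.29e-09). The ratio of *Klf4* to *Klf5* per kb of exon was 1.14 ± 0.0387 with vehicle and 1.69 ± 0.0570 with TGF-β1 (SD, n = 4 each), so that the pair stood nearly level without the cytokine and apart with it.

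*Klf2* (ENSMUSG00000055148, chromosome 8, 72319033 to 72321656, plus strand) was the least abundant of the 10 in CPM, with 247 to 360 counts per culture. It had 6.75, 7.87, 7.41 and 7.80 CPM with vehicle and 5.94, 7.40, 5.89 and 5.26 CPM with TGF-β1. TGF-β1 replicate 6 lay within the vehicle range and the other 3 TGF-β1 cultures below it. The mean was 7.46 ± 0.515 CPM with vehicle and 6.12 ± 0.910 CPM with TGF-β1 (SD, n = 4 each), and *Klf2* was called lower by edgeR (log2 fold change -0.28, standard error 0.09, adjusted p = 0.0104), whereas the exact permutation test gave p = 0.0571. Without TGF-β1 replicate 8 the edgeR adjusted p was 0.0792 and the log2 fold change -0.21. *Klf4*, the other member known from endothelium, moved the opposite way, and the ratio of *Klf4* to *Klf2* per kb of exon went from between 6.72 and 7.74 to between 9.90 and 12.7.

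*Klf3*, *Klf9* and *Klf13*, which are known mainly as repressors, were all lower. *Klf3* (ENSMUSG00000029178, chromosome 5, 64803388 to 64832901, plus strand), which recruits the corepressor CtBP, had 262, 249, 261 and 259 CPM with vehicle and 224, 220.0, 225 and 213 CPM with TGF-β1. It fell by 0.22 on the log2 scale (standard error 0.02, edgeR adjusted p = 2.03e-10), and no culture of one group reached the range of the other. *Klf9* (ENSMUSG00000033863, chromosome 19, 23141226 to 23168134, plus strand) had 232, 235, 224 and 231 CPM with vehicle and 202, 203, 202 and 184 CPM with TGF-β1. In the TGF-β1 group 3 cultures were nearly equal and replicate 8 was lower. The mean went from 231 ± 4.60 to 198 ± 9.47 CPM (SD, n = 4 each; log2 fold change -0.22, standard error 0.03, edgeR adjusted p = 6.57e-09), and without replicate 8 the log2 fold change was -0.18. *Klf13* (ENSMUSG00000052040, chromosome 7, 63886351 to 63938915, minus strand) had 142, 140.4, 137 and 139 CPM with vehicle and 134, 132, 136 and 129 CPM with TGF-β1. The groups came close to each other without overlap. This was the smallest change of the 10 (log2 fold change -0.075, standard error 0.03, edgeR adjusted p = 0.0159), and the call was lost without vehicle replicate 1 (log2 fold change -0.062, adjusted p = 0.0764) and without TGF-β1 replicate 8 (-0.055, adjusted p = 0.120).

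*Klf6* and *Klf7*, close relatives that act mainly as activators, were slightly lower. *Klf6* (ENSMUSG00000000078, chromosome 13, 5861482 to 5870394, plus strand) is known as an injury response gene. It was the most abundant member, with 281, 274, 297 and 296 CPM with vehicle and 272, 272, 266 and 272 CPM with TGF-β1. The vehicle cultures fell into a lower pair (replicates 1 and 2) and a higher pair (replicates 3 and 4). On the second axis of a principal component analysis of all genes tested (8.66% of the variance), the same pairs stood apart. The lowest vehicle culture for *Klf6* was just above the highest TGF-β1 culture. The log2 fold change was -0.085 (standard error 0.02, edgeR adjusted p = 0.00500), and the call was lost without vehicle replicate 3 (-0.061, adjusted p = 0.0664). *Klf7* (ENSMUSG00000025959, chromosome 1, 64029447 to 64122282, minus strand) had 57.1, 54.5, 54.0 and 53.8 CPM with vehicle and 50.5, 51.3, 49.1 and 47.8 CPM with TGF-β1, without overlap (log2 fold change -0.14, standard error 0.03, edgeR adjusted p = 0.000634). Genes annotated on the opposite strand, *Gm13748* and *Gm26649*, cover 39.4% of the exon length of *Klf7*. *Gm13748* had 36 to 54 counts per culture and *Gm26649* had 0 in all. Where reads over the shared stretch could be counted for *Gm26649*, this allows up to 0.0658 CPM (3 counts in the smallest library, counting error only). Otherwise it sets no upper limit. The strand setting of the counting is not given in the sources used here, so the level of *Klf7* is uncertain. For *Klf3* the opposite-strand overlap was 3.59%, and the other 8 members overlapped no other gene. At most 0.263% of the 50-base words in the transcripts of those 8 occurred in another gene.

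Compared per length, the members spanned more than an order of magnitude, and their order was nearly the same in both groups. In CPM per kb of exon, the vehicle means were 65.3 for *Klf6*, 47.9 for *Klf9*, 29.3 for *Klf4*, 25.6 for *Klf5*, 22.9 for *Klf3*, 18.6 for *Klf13*, 16.6 for *Klf10*, 6.75 for *Klf7*, 4.25 for *Klf11* and 4.04 for *Klf2*. In the vehicle cultures neighbours in this order did not overlap, except *Klf11* and *Klf2*. With TGF-β1 *Klf10* moved past *Klf13*, at 19.2 against 17.6 CPM per kb on average, and *Klf4* came up to *Klf9*, at 37.4 against 41.1 CPM per kb with overlapping cultures. *Klf2* and *Klf11* changed places, at 3.31 against 3.01 CPM per kb, and overlapped in both groups. On this scale the least abundant member over the 8 cultures, *Klf11*, exceeded 55.1% of all genes tested, and *Klf6* exceeded 97.6%. The summed level of all 17 annotated Krüppel-like factors listed here, the 10 members and 7 others, was 261 ± 3.66 CPM per kb with vehicle and 250.4 ± 4.28 CPM per kb with TGF-β1 (SD, n = 4 each). Within that sum *Klf11* went from 1.63% ± 0.0761 to 1.20% ± 0.0678, and *Klf9* from 18.4% ± 0.574 to 16.4% ± 0.567.

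**Figure D2:**
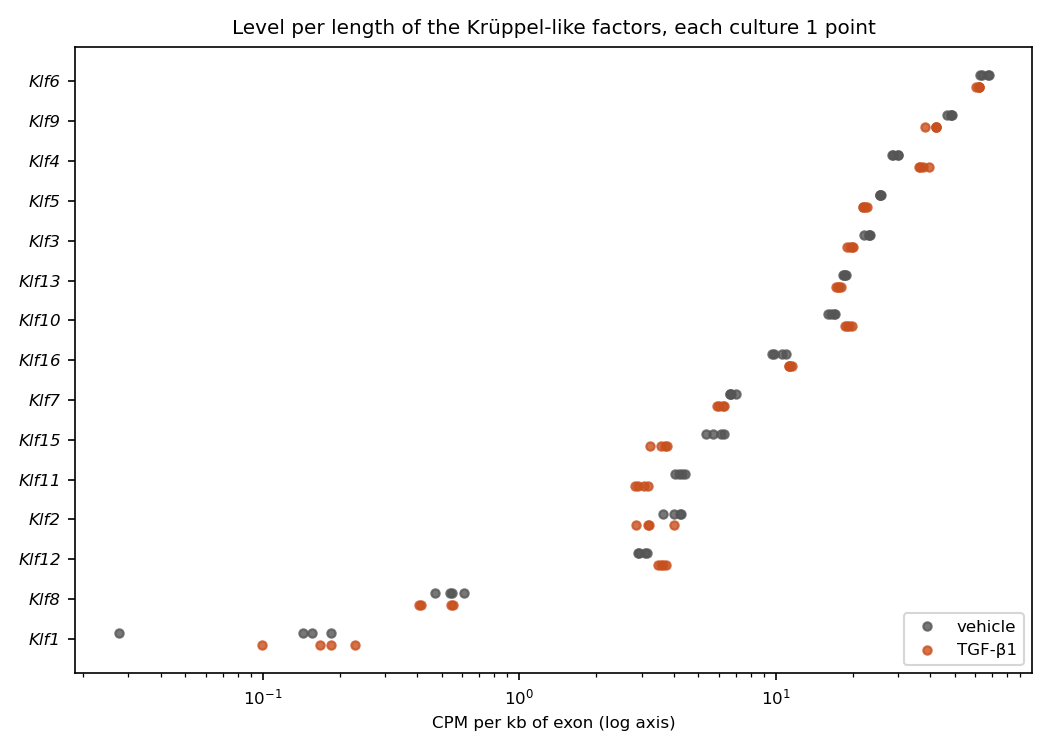
Level per length (CPM per kb of exon, log axis) of the Krüppel-like factors above 0.1 CPM per kb with vehicle, with 1 point per culture and the groups in different colours. *Klf6* and *Klf9* are the most abundant, and *Klf15* and *Klf11* show the widest gaps between groups among genes called lower.

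**Figure D3:**
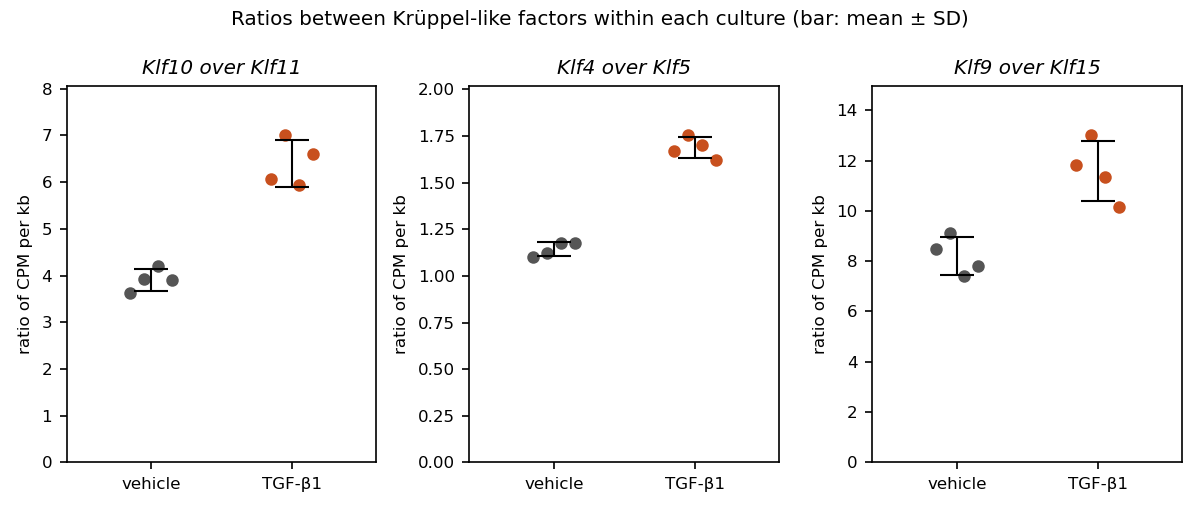
Ratios of level per kb of exon between pairs of Krüppel-like factors within each culture (vertical axes from 0, 1 point per culture, bar mean ± SD). *Klf10* over *Klf11* goes from a mean of 3.91 to 6.40, *Klf4* over *Klf5* from 1.14 to 1.69 and *Klf9* over *Klf15* from 8.21 to 11.6, and the groups do not overlap in any of the 3.

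Of the 7 other family members, 5 were tested, of which 2 were higher and 1 was lower, against 41.3% called among all genes tested. The lower one, *Klf15*, changed more than any of the 10 members. It went from 16.4 ± 1.18 to 9.95 ± 0.653 CPM without overlap, and fell by 0.72 on the log2 scale (standard error 0.07, edgeR adjusted p = 1.25e-12). *Klf12*, which binds CtBP, rose from 21.1 ± 0.845 to 25.1 ± 0.770 CPM (log2 fold change 0.25), and *Klf16* rose from 27.4 ± 1.65 to 30.4 ± 0.425 CPM (0.15). *Klf8* (2.82 against 2.49 CPM) and *Klf1* (0.195 against 0.260 CPM) were not called, and *Klf14* and *Klf17* were too low to be tested. The Sp factors bind the same GC-rich elements and are the nearest relatives of the family. Of the 9 Sp factors 6 were tested and 1 was called, against the same 41.3% of all genes tested. This was *Sp3*, which was higher by 0.09 on the log2 scale. *Sp1*, the most studied of them, had 221 ± 7.44 CPM with vehicle and 224 ± 4.15 CPM with TGF-β1 (log2 fold change 0.02, standard error 0.03, edgeR adjusted p = 0.601). *Sp4* lay just outside the threshold (log2 fold change -0.17, edgeR adjusted p = 0.0533). Its adjusted p ranged from 0.0152 (without vehicle replicate 3) to 0.220 with single cultures left out, and was 0.107 with DESeq2. In edgeR it was called with library totals alone (0.0404), upper-quartile factors (0.0472) and at least 10 counts required in every culture (0.0488).

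**Figure D4:**
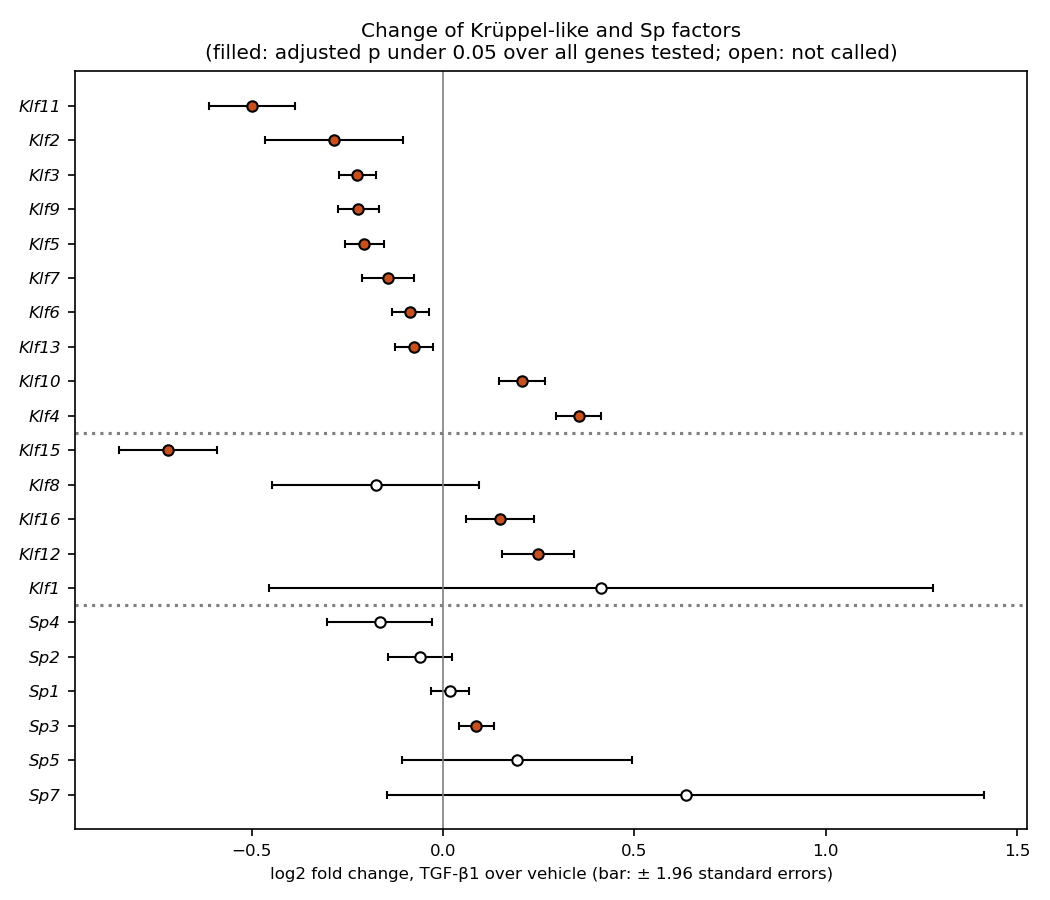
Log2 fold change (TGF-β1 over vehicle) with 95% intervals as bars for the 10 Krüppel-like factors (top), 5 other tested family members (middle) and 6 tested Sp factors (bottom), filled where the adjusted p was under 0.05. All 10 members are filled, from -0.50 for *Klf11* to 0.35 for *Klf4*, and *Klf15* lies lowest at -0.72.

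Since *Klf9* and *Klf15* respond to glucocorticoids, they were set beside a list of 14 other genes known for this response. Of the 14, 10 were lower and 4 were higher, with a median log2 fold change of -0.30, where 20.3% of all genes tested were lower and 20.9% higher, and 27.1% and 32.6% of those at or above 6.79 CPM. *Zbtb16*, a zinc-finger repressor, fell from 179 ± 5.14 to 71.0 ± 5.07 CPM, *Cdkn1c*, a cell cycle inhibitor, from 5.83 ± 0.556 to 2.43 ± 0.268 CPM, and *Tsc22d3*, a mediator of glucocorticoid action, from 203 ± 8.10 to 117 ± 3.26 CPM. The log2 fold changes were -1.33, -1.26 and -0.79, with edgeR adjusted p-values of 3.83e-19, 6.30e-13 and 1.77e-26. *Klf9*, at -0.22, changed less than these 3, and *Klf15*, at -0.72, lay near *Tsc22d3*. A gene on the opposite strand covers 30.7% of the exon length of *Cdkn1c*, so its level is uncertain. For *Mt2*, named next, that share is 73.5%. The 4 higher genes, named after their values were seen, were *Mt1* and *Mt2*, which encode metal-binding proteins, *Errfi1* and *Sgk1*.

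*Klf2*, *Klf4*, *Klf6* and *Klf10* are also known as immediate early genes, which respond within an hour to serum or injury, although the cultures were sampled at 48 h. Of 23 other immediate early genes, 17 were higher and 3 were lower. Of all genes tested 20.9% were higher and 20.3% lower, and of those at or above 6.79 CPM 32.6% and 27.1%. The median log2 fold change of the list was 0.45. The largest changes were in *Egr2* (6.67 ± 0.744 to 18.7 ± 1.11 CPM, log2 fold change 1.49), *Maff* (24.6 ± 1.41 to 49.7 ± 1.46 CPM, 1.02) and *Egr3* (7.10 ± 0.169 to 13.3 ± 1.06 CPM, 0.91), each called by edgeR (adjusted p = 7.51e-22, 3.15e-24 and 1.53e-14). *Klf4* and *Klf10* had the same sign as most of this list and a smaller change than its median, whereas *Klf2* and *Klf6* had the opposite sign.

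**Figure D5:**
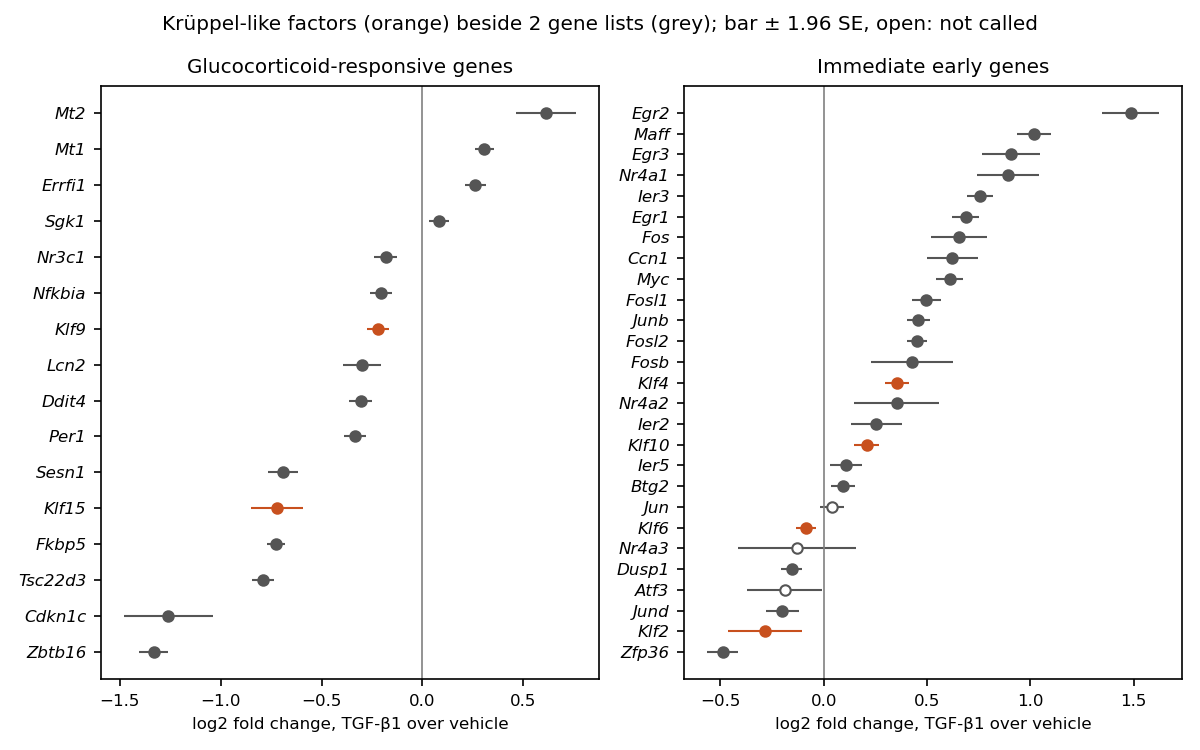
Log2 fold change (TGF-β1 over vehicle, bars 95% intervals) of 14 glucocorticoid-responsive genes with *Klf9* and *Klf15* (left) and of 23 immediate early genes with *Klf2*, *Klf4*, *Klf6* and *Klf10* (right), open where not called. *Klf9* (-0.22) and *Klf15* (-0.72) lie on the side of the 10 lower genes, and *Klf4* (0.35) and *Klf10* (0.21) on the side of the 17 higher ones.

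The proteins through which Krüppel-like factors act or are removed were examined next. Of 14 corepressors and coactivators, 4 were higher and 6 were lower (median log2 fold change -0.06). Beside the counts in this paragraph, 20.9% of all genes tested were higher and 20.3% were lower. At or above 6.79 CPM the shares were 32.6% and 27.1%. *Sap30*, a subunit of the SIN3 complex, rose by 0.27 on the log2 scale, and *Kat2b*, a histone acetyltransferase, fell by 0.20. The call of *Sap30* (edgeR adjusted p = 0.0163) was lost without vehicle replicate 2 (0.0541) and without TGF-β1 replicate 8 (0.0897). Of 9 ubiquitin ligases, 4 were higher and 3 were lower. *Wwp1*, which targets KLF2 and KLF5 for degradation, fell from 188 ± 4.53 to 121 ± 3.13 CPM (log2 fold change -0.64, edgeR adjusted p = 3.60e-24), *Fbxo32* fell by 0.55, and *Smurf1* rose by 0.36. Of 11 upstream regulators of *Klf2* and *Klf4*, 3 were higher and 5 were lower. *Elk3*, a partner of serum response factor, rose from 88.8 ± 1.40 to 153 ± 5.33 CPM (0.78). *Srf*, which encodes that factor and was named after its value was seen, fell from 89.0 ± 3.78 to 62.3 ± 2.98 CPM (-0.52). It is also in the list of smooth muscle genes below. The MEF2 factors, which drive *Klf2* and *Klf4* in endothelium, moved both ways. *Mef2d*, named after its value was seen, rose from 143 ± 2.66 to 164 ± 0.986 CPM (log2 fold change 0.20). *Mef2a*, named likewise and the most abundant of them in CPM, fell from 191 ± 5.23 to 168 ± 1.02 CPM (-0.18). *Mef2c* fell from 37.9 ± 2.10 to 25.1 ± 0.962 CPM (-0.59) and *Mef2b* from 1.03 ± 0.211 to 0.569 ± 0.0915 CPM (-0.85).

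KLF4 is known to repress smooth muscle genes, and *Klf4* was read beside 11 of these, 10 of which were tested. With TGF-β1, 5 were lower and 1 was higher. Of all genes tested 20.3% were lower and 20.9% higher, and of those at or above 6.79 CPM 27.1% and 32.6%. The median log2 fold change of the list was -0.49. The largest falls were in *Synpo2* (43.0 ± 1.33 to 9.94 ± 0.498 CPM), *Smtn* (125 ± 3.17 to 61.6 ± 2.97 CPM) and *Itga8* (50.6 ± 2.77 to 29.5 ± 2.60 CPM), which encode an actin-bundling adaptor, a smooth muscle cytoskeletal protein and an integrin chain. The most abundant gene of the list, *Acta2*, which encodes smooth muscle actin and was named after its value was seen, had 731 ± 30.1 CPM with vehicle and 715 ± 17.2 CPM with TGF-β1 and was not called (log2 fold change -0.03, edgeR adjusted p = 0.339). *Tagln*, *Myh11* and *Des*, all under 2 CPM on average, were not called either. Their log2 fold changes were 0.32, -0.47 and -0.14. Of these only *Myh11* had groups without overlap (edgeR adjusted p = 0.0780). Genes on the opposite strand cover 67.9% of the exon length of *Tagln*, so its level is uncertain. The 1 higher member was *Cnn1*, which encodes calponin and was named after its value was seen. Its edgeR adjusted p was 0.0486, and DESeq2 gave 0.0841, which ended the call.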

How the data were processed

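RNA from 8 mouse brain pericyte cultures was sequenced with a stranded total RNA kit. Per the labels and methods, the authors used STAR 2.7.5c for alignment to mm10, SAMtools 1.15 to take out PCR duplicates and featureCounts 2.0.3 for counts per gene; the annotation release and strand setting are not given in the sources used here. They deposited raw counts, not normalized, 1 library per culture. Among counts of 1 to 20, 68.5% to 70.2% were even, so counts may not be independent molecules.

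Symbols, positions and exon lengths came from GENCODE M21 on GRCm38, the assembly named mm10, and 54495 of 54532 identifiers had a position. The fit used edgeR 4.0.16 in R 4.3.3 (filterByExpr, TMM, robust quasi-likelihood test), with the standard error taken as the log2 fold change divided by the square root of F. A count of 3 corresponded to 0.0631 to 0.0658 CPM. Between libraries of a group, chi-square per degree of freedom was 2.25 to 3.93, or 1.14 to 2.11 with counts divided by 2, and each was kept as 1 replicate. The code was tested on simulated data. Alternatives were DESeq2 1.42.0 (the authors' tool), 3 other scalings, 2 other filters, counts per fragment and each culture left out.

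The members and the gene lists were chosen with earlier results of these data known, and lists are given by counts and medians with no test. All 10 members are described; for other family members and Sp factors values are given for those called, and for other lists up to 3 called genes with the largest change among those without overlap, of which some are not reported here. Any other gene is given for a level or was chosen after its value was seen. Protein sequences were not used here.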

Additional observations from a re-analysis of the deposited data

Results flagged for a closer look

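In 132 groups of 4 cultures (66 genes in each arm, namely tested family and Sp members and the leading genes of the lists) 1 culture stood far from the other 3 in 7 cases, where chance at 1 in 20 gives 6.6. Among the Krüppel-like factors, *Klf6* in TGF-β1 replicate 7 had 266 CPM and its nearest neighbour 272, and *Klf9* in TGF-β1 replicate 8 had 184 CPM and its nearest neighbour 202. *Sp1* was at 232 CPM in vehicle replicate 1 against 219. *Egr3* was at 6.85 CPM in vehicle replicate 4 against 7.18, and *Angpt2* at 84.7 CPM in vehicle replicate 3 against 90.5. For *Smtn*, vehicle replicate 1 had 129.8 CPM and the next culture 124, and for *Slco1c1*, a gene of few counts, TGF-β1 replicate 7 had 0.131 CPM and the next culture 0.0436.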

How the results depend on the processing

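All 10 members kept their direction in the 15 alternatives, and all 10 were called with DESeq2, the 3 other scalings, both filters and counts per fragment. When single cultures were left out, the calls of 3 members were lost at least once: *Klf2*, with log2 fold changes from -0.39 to -0.21 (adjusted p from 0.000701 to 0.0792), *Klf6*, from -0.10 to -0.061 (0.000997 to 0.0664), and *Klf13*, from -0.091 to -0.055 (0.00892 to 0.120). The count of members called lower ranged from 6 to 8, and 2 were higher in every fit. In the same fits, 4265 to 4810 of all genes were called higher and 4093 to 4828 lower. Among the other scalings, the median gene-by-gene shift in log2 fold change against the main fit was largest with library totals alone, at -0.0110. No paired analysis was possible because the labels give the groups no shared replicate numbers. Of the 10 smooth muscle genes tested, 0 to 2 were called higher across the alternatives. Depth limited *Klf14* and *Klf17*, which had at most 4 counts in any culture.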

Other observations

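Genes described as targets of individual Krüppel-like factors were counted from lists written by hand, which overlap each other and the TGF-β response list. Of 13 described targets of KLF2 and KLF4, 11 were tested, 3 of them higher and 6 lower (median log2 fold change -0.32). The largest changes were in *Ptgds*, a prostaglandin synthase (31.2 ± 3.26 to 3.30 ± 0.562 CPM, SD, n = 4 each), *Angpt2*, a ligand of the TIE2 receptor (89.2 ± 3.03 to 23.2 ± 1.45 CPM), and *Edn1*, which encodes endothelin and rose by 1.75 on the log2 scale. Of 10 described targets of KLF5, 8 were higher and 1 was lower (median 0.25), although *Klf5* itself fell. They included *Pdgfb*, a gene of few counts with vehicle (0.249 ± 0.0596 to 2.36 ± 0.183 CPM, log2 fold change 3.23), and *Pdgfa* (1.26). A gene on the opposite strand covers 26.1% of the exon length of *Pdgfa*, so its level is uncertain. Of 11 described targets of KLF6, 7 were higher and 2 were lower (median 0.29), with *Acvrl1*, a receptor of the TGF-β family, at 1.30, *Tgfb1* at 0.69 and *Col1a1* at 0.67.

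Of 12 described targets of KLF10 and KLF11, 10 were tested, 4 of them higher and 2 lower (median 0.06). *Maoa*, a monoamine oxidase, fell from 381 ± 20.7 to 232 ± 10.4 CPM and *Tgfbr2*, the type II receptor, from 406 ± 4.15 to 271 ± 15.1 CPM, while *Smad7*, the inhibitory SMAD, rose from 48.8 ± 2.27 to 74.2 ± 1.69 CPM (log2 fold changes -0.72, -0.59 and 0.60, each called by edgeR with an adjusted p under 0.05). Beside the counts of all these target lists, 20.9% of all genes tested were higher and 20.3% were lower. At or above 6.79 CPM the shares were 32.6% and 27.1%. Of the marker lists, 3 brain pericyte markers were higher and 3 lower of 9 tested, with *Rgs5* falling by 2.02 and *Cspg4* rising by 1.03 on the log2 scale, and 2 endothelial markers were higher and 3 lower of 8 tested. Of 7 macrophage and microglia markers tested 1 was higher and 0 were lower, of 8 astrocyte and glial markers 3 were higher and 3 lower, and of 8 fibroblast markers 3 were higher and 4 lower.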
